A study of Mus musculus with 6 samples.

Results

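The genes described here are the IL-6 family cytokines, their receptor chains and the STAT3 signaling core, measured in EMT6 cells, a mouse mammary carcinoma line. They were chosen by name, as the rows of the deposited gene table whose identifiers map to 3 ligands (Il6, Lif and Il11), 4 receptor chains (Il6ra, Il6st, Lifr and Osmr), the signal transducer Stat3 and its feedback inhibitor Socs3. These are 9 genes of the 53465 in the table, and 8 of them had enough reads to enter the comparison. Cells of the PVITRO group (labelled Parental, 3 libraries) were kept with an isotype control antibody, and cells of the PTRVITRO group (labelled anti-PD-L1 Resistant, cell variant EMT6 PDR, 3 libraries) with an antibody against PD-L1, the surface protein through which tumor cells restrain T cells. Both antibodies were given at 0.5 μg/ml in culture for more than 4 weeks, without a host or added immune cells, and both groups derive from a single cell line. The labels do not say whether the libraries of a group came from separate cultures, so p-values measure only the spread between these libraries, which may be technical.

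IL-6 family cytokines signal through receptor complexes that share gp130, the protein encoded by Il6st. IL-6 and IL-11 first bind a receptor chain of their own and then recruit gp130, whereas LIF assembles gp130 with the LIF receptor and oncostatin M assembles it with the oncostatin M receptor or, in some combinations, the LIF receptor. The receptors activate JAK kinases, which phosphorylate STAT3, and STAT3 then enters the nucleus and induces genes that include Socs3, whose product binds gp130 and JAK and ends the signal. Since STAT3 activity is set by phosphorylation, transcript levels of the pathway do not measure it. The comparison asks whether transcripts of the pathway differed after long exposure of the tumor cells to anti-PD-L1, in a setting where IL6 is among the secreted factors that the study followed.

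The reference promoters of 4 members are shown because these genes mark the extremes of the measured levels, Il6 and Lif among the ligands and Lifr among the receptor chains, or are the textbook STAT3 target, Socs3. Each sequence runs from 250 bases before to 50 bases after a RefSeq transcript start in the GRCm38.p6 assembly, which is of another mouse strain than the BALB/c-derived EMT6 cells. It is written 5′ to 3′ on the gene's strand in lower case, and capitals mark a match to a searched motif. The motifs were the STAT motif TTCNNNGAA, the AP-1 motif TGANTCA, the cAMP response element TGACGTCA and the TATA motif TATAAA, each searched on both strands. No match overlapped another in the member promoters.
Il6, chr5:30012864-30013163, plus strand: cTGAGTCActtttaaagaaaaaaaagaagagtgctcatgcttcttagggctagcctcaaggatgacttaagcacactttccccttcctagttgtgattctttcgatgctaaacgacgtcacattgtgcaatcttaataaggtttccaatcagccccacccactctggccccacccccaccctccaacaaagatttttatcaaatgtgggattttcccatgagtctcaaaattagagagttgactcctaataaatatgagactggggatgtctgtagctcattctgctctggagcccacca
Lif, chr11:4257318-4257617, plus strand: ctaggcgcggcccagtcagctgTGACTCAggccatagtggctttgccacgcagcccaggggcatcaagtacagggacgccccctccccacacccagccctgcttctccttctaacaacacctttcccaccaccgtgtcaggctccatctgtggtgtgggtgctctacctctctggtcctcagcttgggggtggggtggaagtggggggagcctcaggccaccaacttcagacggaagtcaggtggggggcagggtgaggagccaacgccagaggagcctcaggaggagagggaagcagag
Socs3, chr11:117969317-117969616, minus strand: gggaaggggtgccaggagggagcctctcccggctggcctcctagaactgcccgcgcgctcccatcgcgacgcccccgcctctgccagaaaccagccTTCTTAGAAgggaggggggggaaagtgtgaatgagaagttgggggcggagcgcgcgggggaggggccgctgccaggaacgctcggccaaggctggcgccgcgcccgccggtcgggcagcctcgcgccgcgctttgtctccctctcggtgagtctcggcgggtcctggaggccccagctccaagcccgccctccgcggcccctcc
Lifr, chr15:7129322-7129621, plus strand: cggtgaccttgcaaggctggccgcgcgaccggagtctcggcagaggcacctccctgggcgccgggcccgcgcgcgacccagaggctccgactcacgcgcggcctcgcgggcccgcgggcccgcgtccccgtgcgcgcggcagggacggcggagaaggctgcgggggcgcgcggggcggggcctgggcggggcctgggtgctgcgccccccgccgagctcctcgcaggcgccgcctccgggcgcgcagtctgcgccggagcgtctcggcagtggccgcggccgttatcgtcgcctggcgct

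The Socs3 window held 1 match to the STAT motif, whose first base lies 154 bases before the start, and it was the only member window with one. Of 32851 RefSeq promoter windows of this length, 8.3% held the STAT motif. The AP-1 motif, found in 7.81% of windows, was matched 249 bases before the start in Il6, 228 bases before it in Lif, 98 bases before the second of the start sites listed for Il11 and 3 bases after the start in Osmr. None of the member windows held the cAMP response element (1.79% of all windows) or TATAAA (13.6% of all windows). The windows differed widely in CpG content. The Il6 window had 3 CpG dinucleotides, a number reached by 76.7% of windows, the Lif window had 7, the Socs3 window 31 and the Lifr window shown 53, a number reached by 0.451% of windows. A second start site listed for Lifr (chr15:7140292-7140591) had 4 CpG in its window, a number reached by 68.6% of windows. These matches describe letters in the reference sequence, and binding was not measured.

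The libraries held 17757341 (PTRVITRO replicate 3) to 32426739 (PTRVITRO replicate 1) counts in all. Of the 14217 genes tested, 35 were called between the groups at an adjusted p below 0.05 in edgeR's quasi-likelihood test (0.246%). Levels are given as CPM, read counts relative to the library size after scaling by the upper quartile, as mean ± SD over 3 libraries. Of the mammary carcinoma markers, Krt8, Krt18, Krt19 and Epcam had counts and the summed level of the list was 1532 to 1655 CPM in PVITRO and 1619 to 1700 CPM in PTRVITRO, while Cdh1, which encodes E-cadherin, had 2 counts in all. Of the leukocyte markers, only Cd68, a lysosomal gene, had more than 3 counts over the 6 libraries, and the pan-leukocyte gene Ptprc and the macrophage gene Adgre1 had 0 in every library. Summed endothelial and adipocyte markers did not exceed 0.257 and 0.0561 CPM.

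The ligands were dominated by Lif. To compare levels between genes, CPM were divided by the exon length of each gene in kilobases. On this scale Lif stood at 45.4 ± 2.62 CPM per kb (SD over all 6 libraries), above 90.5% of the genes tested, Il11 at 6.92 ± 0.887 and Il6 at 1.34 ± 0.145, above 23.4% of the genes tested. Within each library Lif was 31.6 to 38.9 times as abundant as Il6 per length and 5.36 to 9.33 times as abundant as Il11. Of the counts of these 3 ligands together, Lif took 90.4% to 93.6%.

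**Figure D1:**
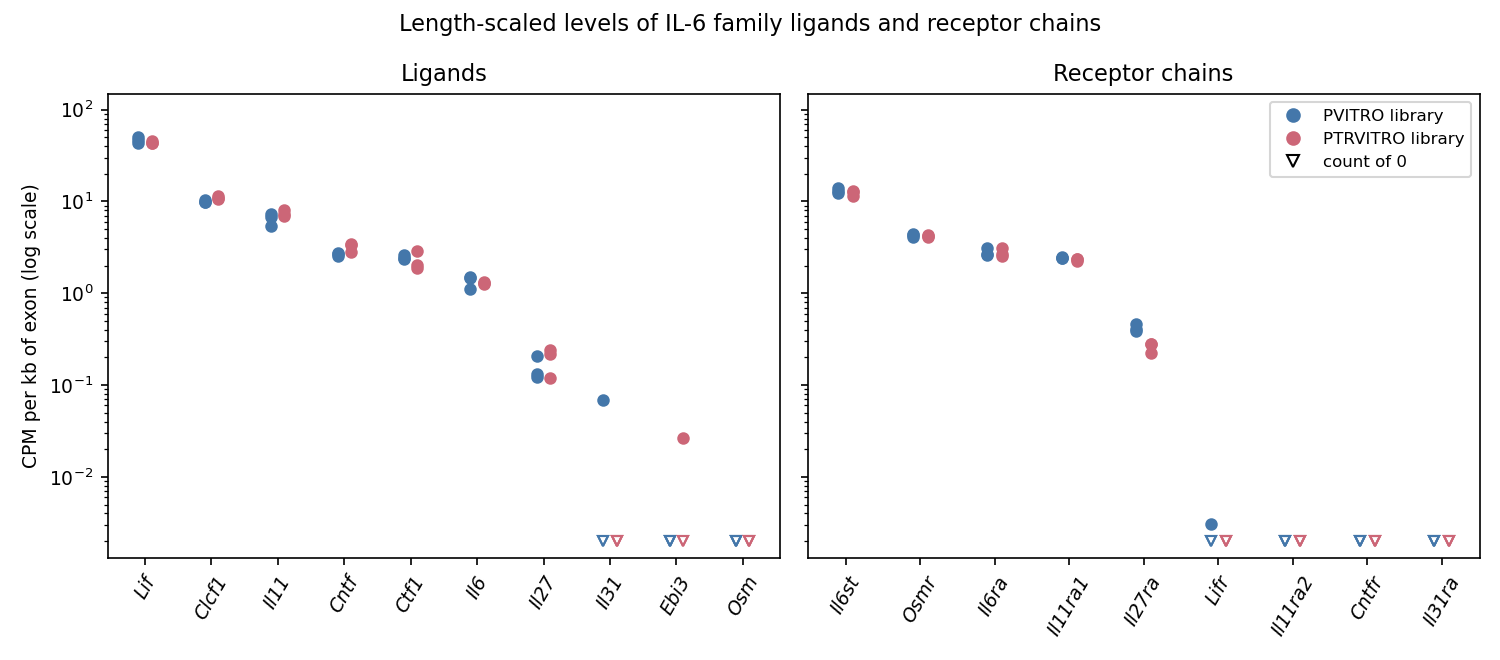
Levels of IL-6 family ligands (left) and receptor chains (right) in CPM per kb of exon on a log axis, with 1 point for each PVITRO (blue) and PTRVITRO (red) library and open triangles for libraries with a count of 0. Lif lies between 42.9 and 49.9 CPM per kb, Il6 between 1.12 and 1.52, and Lifr has a single count in 1 library.

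Il6 encodes the founding cytokine of the family (chr5:30013114-30019981 in GRCm38, plus strand). Its level was 3.68, 3.61 and 2.73 CPM in the PVITRO libraries and 3.15, 3.25 and 3.09 CPM in the PTRVITRO libraries. All 3 PTRVITRO values lay inside the range of the PVITRO values, whose lowest library was replicate 3. The means were 3.34 ± 0.529 and 3.16 ± 0.0810 CPM, and the log2 fold change of PTRVITRO over PVITRO was -0.08 (SE 0.160, 95% interval -0.43 to 0.27, adjusted p = 0.895, edgeR). The interval spans folds of 0.741 to 1.21. Il6 rested on 55 to 108 counts per library. At its mean count of 84.8, counting alone gives a coefficient of variation of 10.9%, against 15.9% measured among the PVITRO libraries and 2.56% among the PTRVITRO libraries.

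Lif encodes leukemia inhibitory factor (chr11:4257557-4272514, plus strand). Its level was 217, 204 and 190.4 CPM in PVITRO and 196, 191 and 187 CPM in PTRVITRO. The groups overlapped because PVITRO replicate 3 fell within the PTRVITRO range. The log2 fold change was -0.09 (SE 0.0477, 95% interval -0.20 to 0.01, adjusted p = 0.502, edgeR), and with at least 3326 counts per library its interval was the narrowest among the ligands.

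Il11 encodes interleukin 11 (chr7:4772373-4782859, minus strand). Its level was 11.1, 15.1 and 14.0 CPM in PVITRO and 14.4, 15.2 and 16.7 CPM in PTRVITRO. The PVITRO value of replicate 1 lay below all others, and replicate 2 lay within the PTRVITRO range. The difference was the largest of the members in size but did not pass the test (log2 fold change 0.19, SE 0.106, 95% interval -0.05 to 0.42, adjusted p = 0.546, edgeR). Without PVITRO replicate 1 the log2 fold change of Il11 was 0.08. Of the 50-base stretches of its transcripts, 3.13% also occur in other genes.

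The receptor chains did not differ between the groups by the test, and their levels were ordered alike in every library. Il6st, the shared gp130 chain, was highest at 12.7 ± 0.843 CPM per kb, followed by Osmr at 4.25 ± 0.112 and Il6ra at 2.79 ± 0.268. Within each library Il6st was 2.73 to 3.19 times as abundant per length as Osmr and 4.04 to 4.95 times as abundant as Il6ra.

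Il6st lies at chr13:112464070-112510086 on the plus strand. Its level was 143, 157 and 136 CPM in PVITRO and 128, 140.4 and 143 CPM in PTRVITRO. Each group held a library within the range of the other (log2 fold change -0.09, SE 0.0573, 95% interval -0.21 to 0.04, adjusted p = 0.608, edgeR). Il6ra, the chain that binds IL-6 itself (chr3:89864059-89913196, minus strand), was at 22.5, 27.1 and 22.9 CPM in PVITRO and 22.2, 27.0 and 22.9 CPM in PTRVITRO. The libraries of both groups spread over the same range, with replicate 2 highest in each (log2 fold change -0.01, SE 0.0923, 95% interval -0.21 to 0.19, adjusted p = 0.978, edgeR). An exon of Il6ra overlaps the antisense gene Gm42809, which was at 0.23 and 0.285 CPM in the groups, and the strand setting of the counting is not stated. Counting both genes together left a log2 ratio of the mean levels of -0.004.

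Osmr encodes the oncostatin M receptor chain (chr15:6813577-6874969, minus strand). It was the least variable member, at 50.1, 53.5 and 52.0 CPM in PVITRO and 51.3, 52.2 and 49.9 CPM in PTRVITRO. The groups overlapped nearly fully (log2 fold change -0.02, SE 0.0436, 95% interval -0.12 to 0.08, adjusted p = 0.905, edgeR).

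Lifr, which encodes the receptor chain for LIF, was close to absent from these libraries. It had 1 count in PVITRO replicate 2 and 0 counts in each of the other 5 libraries, so it was removed by the filter and not tested. A count of 3 per library, taken as the floor, corresponds to 0.0086 to 0.0156 CPM per kb for this gene, for counting error only. Against this floor, Lifr was at least 264-fold lower per length than Osmr and at least 823-fold lower than Il6st in each library. The ligand with the highest level among the members thus stood beside a receptor chain that was not detectable above the floor at this depth. The gene lies at chr15:7090614-7197489 on the plus strand, and 0.296% of its 50-base stretches occur in other genes.

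**Figure D2:**
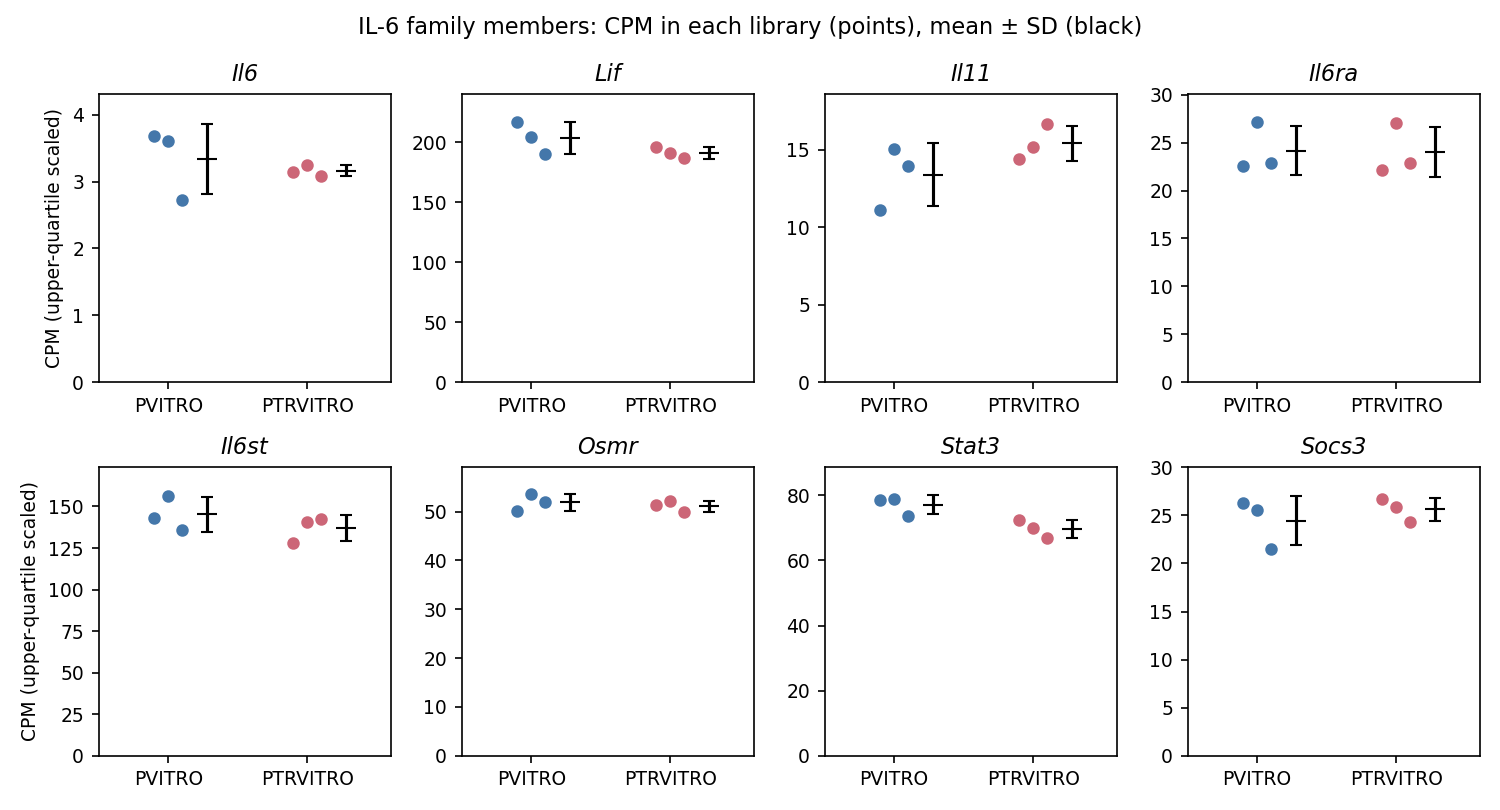
CPM of the 8 tested members in each library (points, PVITRO blue and PTRVITRO red, replicates 1 to 3 from left to right) with the group mean ± SD in black, on linear axes that start at 0. The groups overlap for each gene but Stat3, whose PTRVITRO libraries (66.8 to 72.3 CPM) lie below its PVITRO libraries (73.7 to 79.0 CPM).

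Stat3, the transducer on which the receptors converge (chr11:100885098-100939540, minus strand), was the only member whose groups did not overlap. Its level was 78.5, 79.0 and 73.7 CPM in PVITRO and 72.3, 70.0 and 66.8 CPM in PTRVITRO. The gap between the lowest PVITRO and the highest PTRVITRO library was small beside the spread within the groups, whose means were 77.1 ± 2.93 and 69.7 ± 2.78 CPM. The log2 fold change was -0.14 (SE 0.0458, 95% interval -0.24 to -0.04), a difference of -9.41% (interval -15.5% to -2.83%). The unadjusted p was 0.0101 and the adjusted p 0.262 (edgeR), so Stat3 was not called. Without PTRVITRO replicate 3, its unadjusted p was no longer below 0.05. Groups that did not overlap, with PTRVITRO lower, were found for 9.33% of the genes tested, and an unadjusted p below 0.05 in this direction for 6.13%.

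The end of Stat3 overlaps the end of Stat5a, which lies on the opposite strand and encodes another STAT. Stat5a was at 11.8 ± 1.91 CPM in PVITRO and 9.60 ± 0.391 CPM in PTRVITRO, and the sum of both genes was 88.9 ± 3.23 and 79.3 ± 2.97 CPM, again without overlap. Over the 6 libraries, the genes whose log2 CPM followed Stat3 most closely were Nop53 (Pearson r = 0.990), Kirrel (r = 0.989) and Cx3cl1 (r = 0.989). These correlations are over the same 6 libraries, which differ in depth and fall into the 2 groups, so that a difference between the groups or in depth can enter each r, and 63 of the other 14216 genes tested reached an r of 0.95. Among the members, Lif had the highest r with Stat3 (0.859) and Il11 the lowest (-0.689). Some cell type markers separated the groups as well. The mesenchymal markers Vim, Fn1 and Cdh2 summed to 8168 to 9038 CPM in PVITRO and 7478 to 7947 CPM in PTRVITRO. The gap came from Fn1, which encodes fibronectin (log2 fold change -0.18, groups without overlap, adjusted p = 0.208, edgeR), whereas Vim was at 1889 and 1890.4 CPM on average and overlapped, and Cdh2 had 2 counts in all. Of the mammary carcinoma markers, the keratin gene Krt18 (log2 fold change 0.17, unadjusted p = 0.00136, adjusted p = 0.139, edgeR) and Epcam (0.48, unadjusted p = 0.0351, adjusted p = 0.392) were higher in PTRVITRO without overlap, while Krt8 and Krt19 overlapped, with log2 fold changes of 0.01 and 0.05. The part of these markers in the Stat3 difference was not tested. In bulk RNA, fewer cells expressing a gene and less RNA per cell cannot be told apart.

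Socs3, the feedback inhibitor (chr11:117966079-117970047, minus strand), was at 26.3, 25.5 and 21.5 CPM in PVITRO and 26.7, 25.8 and 24.4 CPM in PTRVITRO. The groups overlapped, and PVITRO replicate 3 was the lowest library. The log2 fold change was 0.07 (SE 0.0768, 95% interval -0.10 to 0.24, adjusted p = 0.777, edgeR). Relative to Stat3 within the same library and per length, Socs3 stood at 1.11, 1.07 and 0.963 in PVITRO and at 1.22, 1.22 and 1.20 in PTRVITRO. This ratio did not overlap between the groups. It was 1 of 10 ratios between pathway genes that were computed, of which 2 did not overlap, and it was not tested because its parts had been seen.

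Across the members, none of the 8 tested genes was called, beside 0.246% of all genes tested (0.0985% higher and 0.148% lower in PTRVITRO). Of these genes 2 were higher and 6 lower in PTRVITRO, with a median log2 fold change of -0.05 against -0.004 over all genes tested. With 1 library left out, the median of the members ran from -0.094 (without PTRVITRO replicate 2) to -0.0055 (without PVITRO replicate 2, where that over all genes was -0.0086), and it was -0.089 without PVITRO replicate 3, -0.029 without PTRVITRO replicate 1 and -0.032 without PTRVITRO replicate 3. An unadjusted p below 0.05 was found for 1 of 8 members (12.5%) and for 11.4% of all genes tested (5.26% higher and 6.13% lower). Groups without overlap were likewise found for 1 of 8 members and for 17.6% of all genes tested. In order of level per length the members ran Lif, Il6st, Socs3, Stat3, Il11, Osmr, Il6ra, Il6 and Lifr. Between neighbours in this order, the ranges over the 6 libraries overlapped for Socs3 and Stat3 and for Stat3 and Il11, and for no other pair.

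**Figure D3:**
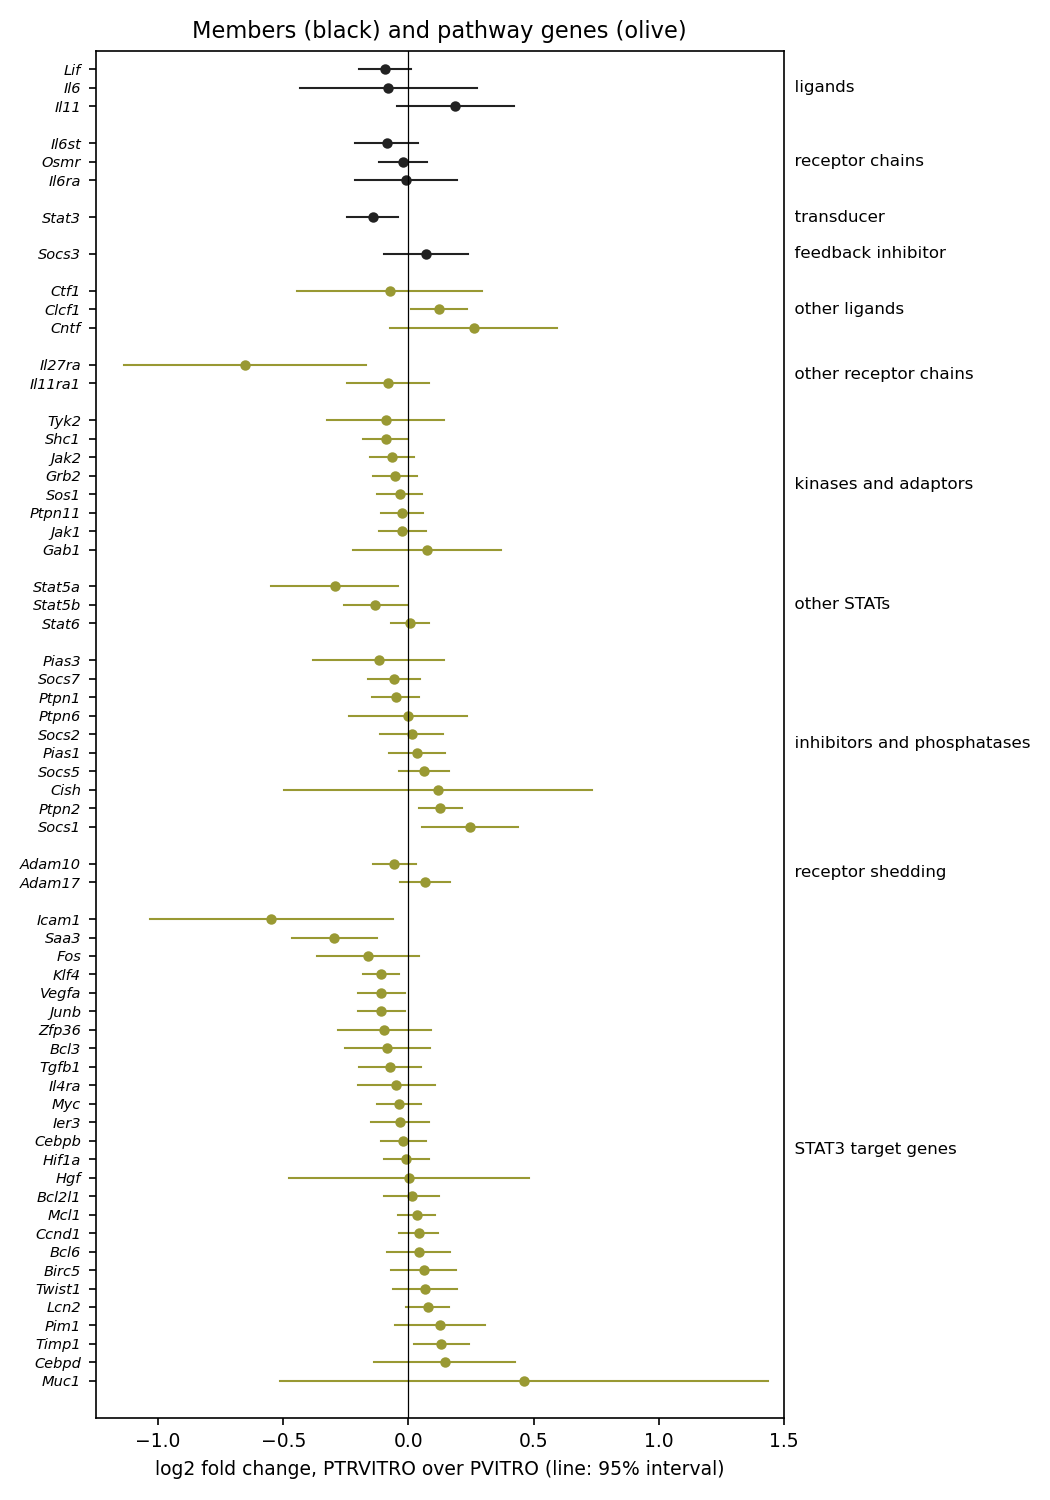
Log2 fold change of PTRVITRO over PVITRO (points) with the 95% interval of the edgeR fit (lines) for the 8 tested members (black) and tested genes of the pathway list (olive), grouped by role. The members lie between -0.14 and 0.19, and no gene shown was called after adjustment over all genes tested.

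The other genes of the pathway were described from a list of 66, of which 56 were tested and 6 had 0 counts in every library. None was called by edgeR after adjustment. Of the 56 genes, 24 were higher and 32 lower in PTRVITRO, with a median log2 fold change of -0.024 against -0.004 over all genes tested. This median was -0.012 with no scaling factor and -0.00075 without PTRVITRO replicate 3. An unadjusted p below 0.05 was found for 12 genes (21.4%, beside 11.4% of all genes tested), 4 of them higher (beside 5.26% of all genes tested) and 8 lower (beside 6.13%). This number was 6 without PVITRO replicate 1 or without PTRVITRO replicate 3, 8 without PVITRO replicate 3 or without PTRVITRO replicate 2, and 16 without PVITRO replicate 2. The genes called over the whole table also moved in these fits, from 8 to 64. The share of 11.4% holds for the fit of all libraries only, so a change in the list cannot be told from a change in all genes. Groups without overlap were found for 11 genes (19.6%, beside 17.6%), 4 of them higher (beside 8.27% of all genes tested) and 7 lower (beside 9.33%).

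Among the other ligands, Osm, which encodes oncostatin M, had 0 counts in every library, so the receptor chain Osmr was present without a transcript of its ligand above the floor. Clcf1, which encodes cardiotrophin-like cytokine factor 1, had 9.82 to 11.5 CPM per kb in the libraries of both groups, the second level among the ligands after Lif. It was at 37.4, 39.9 and 37.9 CPM in PVITRO and 43.8, 40.3 and 41.4 CPM in PTRVITRO. The PTRVITRO libraries all lay above the PVITRO libraries, by a margin smaller than the spread within a group (log2 fold change 0.12, SE 0.0505, unadjusted p = 0.0333, adjusted p = 0.386, edgeR). Its exons overlap those of AC109138.7 on the same strand, so its counts are uncertain. Ctf1 and Cntf, which encode cardiotrophin 1 and ciliary neurotrophic factor, had adjusted p = 0.909 and adjusted p = 0.554 (edgeR). The exons of Cntf overlap those of Zfp91 on the same strand, so its counts are uncertain too. Il27 had at most 7 counts in a library, Ebi3 had 1 count and Il31 had 2 counts in all.

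Among the other receptor chains, Il11ra1, the chain for IL-11, was at 10.9, 10.9 and 11.0 CPM in PVITRO and 10.1, 10.5 and 10.4 CPM in PTRVITRO, a log2 fold change of -0.08 (SE 0.0742, adjusted p = 0.724, edgeR). Its near-identical copy Il11ra2 was listed at 0, and the split of reads between them is uncertain. Cntfr and Il31ra had 0 counts in every library. Il27ra, with 31.3 counts per library on average, was at 1.37 to 1.61 CPM in PVITRO and 0.786 to 0.988 CPM in PTRVITRO. These groups did not overlap (log2 fold change -0.65, SE 0.219, unadjusted p = 0.0128, adjusted p = 0.284, edgeR). The exons of Il27ra overlap those of Palm3 on the opposite strand, and the strand setting of the counting is not stated, so its counts are uncertain.

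Of the 8 kinases and adaptors 1 was higher and 7 were lower, beside 6893 higher and 7324 lower among all genes tested, and none had an unadjusted p below 0.05. Only Shc1 had groups without overlap (12.5%, beside 17.6% of all genes tested). It was lower in PTRVITRO (log2 fold change -0.09, unadjusted p = 0.0501, adjusted p = 0.438, edgeR). The receptor-associated kinases Jak2 and Jak1 stood at 17.9 and 17.7 CPM per kb, and Tyk2 at 2.72. Their log2 fold changes were -0.07 for Jak2, -0.02 for Jak1 and -0.09 for Tyk2. The other STATs held 2 genes that were higher and 2 that were lower in PTRVITRO. The lower ones, Stat5a and Stat5b, had an unadjusted p below 0.05. Their log2 fold changes were -0.29 (SE 0.115, adjusted p = 0.355, edgeR) and -0.13 (SE 0.0566, adjusted p = 0.414, edgeR). The Stat5a groups overlapped and the Stat5b groups did not.

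The inhibitors and phosphatases held 10 tested genes, 6 higher and 4 lower. Ptpn2, a phosphatase that acts on JAK1 and STATs, was at 115, 120.2 and 119 CPM in PVITRO and 126, 128 and 133 CPM in PTRVITRO. The PTRVITRO libraries all lay above the PVITRO libraries (log2 fold change 0.13, SE 0.0388, unadjusted p = 0.0076, adjusted p = 0.238, edgeR). Socs1, an inhibitor of JAK kinases related to Socs3, was at 10.2, 10.1 and 8.81 CPM in PVITRO and 12.1, 11.0 and 11.4 CPM in PTRVITRO. Its groups did not overlap either (log2 fold change 0.25, SE 0.0872, unadjusted p = 0.0172, adjusted p = 0.306, edgeR). Per length, the ratio of Socs3 to Socs1 was 2.53 ± 0.0654 in PVITRO and 2.24 ± 0.102 in PTRVITRO, the second of the ratios without overlap.

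Of the genes that STAT3 is known to induce, 26 of 28 were tested, with 12 higher and 14 lower in PTRVITRO. Saa3, an acute phase protein, had the smallest p of the pathway list. It was at 12.0, 12.1 and 11.7 CPM in PVITRO and 9.47, 9.53 and 10.3 CPM in PTRVITRO. The groups did not overlap, and the difference was larger than the spread within either group (log2 fold change -0.30, SE 0.0772, unadjusted p = 0.0029, adjusted p = 0.178, edgeR). The transcription factor Klf4 was at 321, 329 and 324 CPM in PVITRO and 307, 298 and 297 CPM in PTRVITRO, again without overlap (log2 fold change -0.11, SE 0.0322, adjusted p = 0.224, edgeR). For Vegfa, the angiogenic growth factor, the log2 fold change was -0.11 (adjusted p = 0.350, edgeR), and for the metalloproteinase inhibitor Timp1 it was 0.13 (adjusted p = 0.336, edgeR). Both overlapped between the groups. The other target genes with an unadjusted p below 0.05 were Icam1, an adhesion molecule with 36.4 counts per library on average, and the AP-1 subunit Junb, with log2 fold changes of -0.55 and -0.11. Ptpn2, Socs1, Saa3, Klf4, Vegfa and Timp1 were named by a rule, the 3 smallest p-values in each direction at a mean count of at least 50. Their small p-values thus follow from how they were picked. The other genes of the pathway list given here by name were chosen after their values had been seen.

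**Figure D4:**
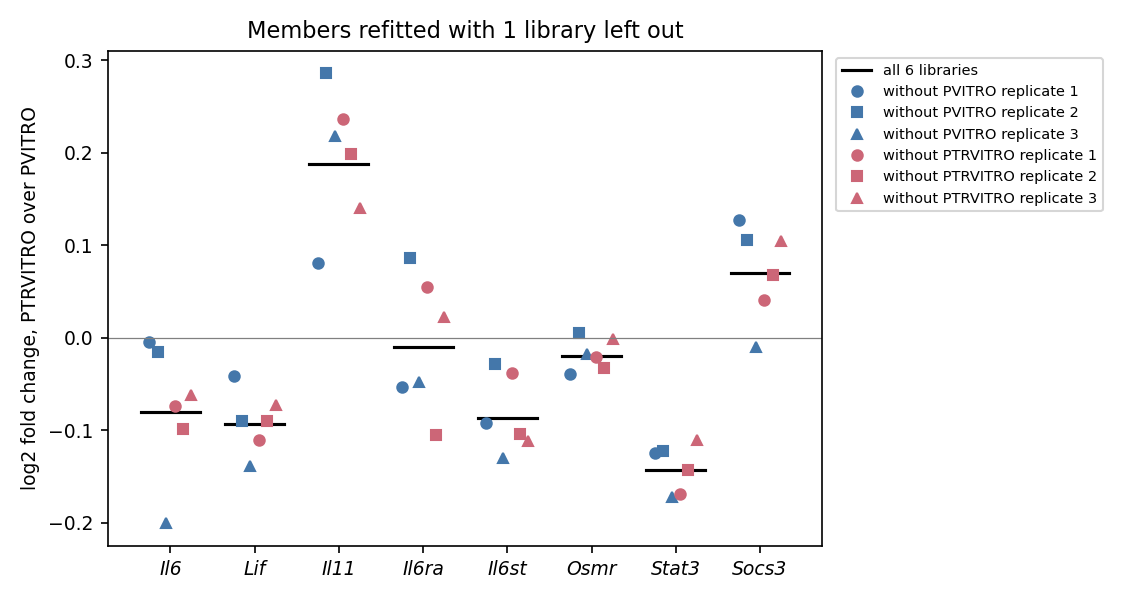
Log2 fold change of each tested member with all 6 libraries (black bars) and refitted with 1 library left out (symbols). Stat3 stays between -0.17 and -0.11 and Il11 between 0.08 and 0.29, while Il6ra (-0.11 to 0.09), Osmr and Socs3 lie on both sides of 0.

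Leaving out each library in turn kept the sign of Il6, Lif, Il11, Il6st and Stat3 and changed that of Il6ra, Osmr and Socs3 at least once, as the plot of refitted values shows. The size of several values moved. The log2 fold change of Il6 ran from -0.20 (without PVITRO replicate 3) to -0.005 (without PVITRO replicate 1), that of Lif from -0.14 (without PVITRO replicate 3) to -0.04 (without PVITRO replicate 1), and that of Il6st from -0.13 (without PVITRO replicate 3) to -0.03 (without PVITRO replicate 2). None of the members was called in any of these fits. The values of the members that changed sign were small in size in the fit of all libraries, at most 0.07 on the log2 scale.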

How the data were processed

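Polyadenylated RNA was sequenced from 3 PVITRO and 3 PTRVITRO libraries. The authors deposited gene-level RSEM expected counts, unscaled. The submitters' processing notes name FastQC 0.11.5, STAR 2.6.0a and RSEM 1.3.1, with the GRCm38 genome. Whether RSEM used strand is not given in the sources used here. The study calls replicates technical unless stated otherwise.

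Expected counts were rounded, filtered with filterByExpr (minimum count 10, minimum total 15), scaled by the upper quartile and compared with edgeR 4.0.16 in R 4.3.3 (quasi-likelihood F test, group only). The Benjamini-Hochberg adjustment covered 14217 genes, called at an adjusted p below 0.05. Standard errors come from the F statistic. Exon lengths and positions come from a GENCODE annotation of GRCm38 that is later than the one the study used, and promoters from RefSeq. The fit was tested on simulated counts, with the same dispersion for every gene. It called 68.7% of changes of 1.25-fold, 98.5% of 1.5-fold and 100% of 2-fold, with 2 false calls. Smaller changes were not simulated, so differences of the size seen in the members could be missed.

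Members and lists were chosen with earlier results of these data known. Named genes are the members and, from the pathway list, in each direction the 3 with the smallest p at a mean count of at least 50, plus the 3 genes most correlated with the member of smallest p. Other pathway genes named, such as further ligands, receptor chains and kinases, were chosen after their values had been seen. Some genes of the pathway list enter its counts but are not reported here by name. Marker lists cover mammary carcinoma, mesenchymal, leukocyte, endothelial and adipocyte cells.

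Alternatives were TMM or no scaling, DESeq2 1.42.0, limma-voom (limma 3.58.1), other filters, a replicate block and leaving out each library.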

Additional observations from a re-analysis of the deposited data

How the results depend on the processing

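The number of genes called over the whole table, 35, was 111 with DESeq2, 400 without a filter on low counts, 54 under a minimum of 10 counts in each library and 8 to 64 when 1 library was left out (8 without PTRVITRO replicate 3, 9 without PVITRO replicate 3, 11 without PVITRO replicate 1, 12 without PTRVITRO replicate 2 and 64 without PVITRO replicate 2). The cause was not tested. With the replicate number as a block it was 68. Same-numbered libraries had correlations of their deviations of 0.109, 0.095 and -0.0556, so the numbers were not taken to pair the libraries. No member was called under any alternative, and of the pathway list only Fos was, without a filter (log2 fold change -0.16, adjusted p = 0.0408, edgeR, 1 gene). The members with an unadjusted p below 0.05 were Stat3 alone in the fit of all libraries and Stat3, Lif and Il11 with the block or without a filter. Under these 2 settings the genes called over the whole table rose as well, to 68 and 400, so the added members are not a result about Lif and Il11. With 1 library left out, there were 0 to 2, with Il11 beside Stat3 without PVITRO replicate 2, Lif beside Stat3 without PVITRO replicate 3, and none without PTRVITRO replicate 3. The pathway list had 8 such genes with DESeq2. No share over all genes tested at this threshold is given for the alternatives. The adjusted p of Stat3 ran from 0.160 to 0.567 over the alternatives. Of 56 member values under other settings 55 kept their sign and their side of the threshold, and Il6ra was 0.00235 with no scaling factor. With 1 library left out, 43 of 48 did, and the log2 fold changes spanned -0.106 to 0.0860 for Il6ra, -0.0388 to 0.00499 for Osmr and -0.00981 to 0.127 for Socs3. Depth limits genes with few counts, among them Il27ra, Icam1, Epcam, Cntf and Il6, and leaves no statement on Lifr or Osm below the floor of 3 counts per library.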
